A study of Rattus norvegicus with 2 samples.

Results

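The lysosomal genes described here are 10 genes of the rat: the proteases cathepsin B (Ctsb), D (Ctsd), H (Ctsh) and L (Ctsl), and 6 further lysosomal genes, Psap, Grn, Lamp1, Lamp2, Cd63 and Lgals3. They were taken as every probe set, apart from the controls of the array, that the platform annotation pairs with exactly 1 of these symbols. All 10 had at least 1 such probe set, among 4736 genes with a symbol of their own on the array, and together they had 20. The RNA came from cultured endothelium of the aorta and from cultured endocardium, the lining of the heart chambers. Per the labels both cell types were isolated from the same 2 rats, pooled by origin, grown for 2 passages with culture conditions and confluence matched as closely as possible, and read on 1 Affymetrix U34A array for each origin. No treatment or gene change is named, and strain, sex and age are not given in the sources used here. With 1 array in each group and pooled animals there was no spread between samples, so the differences below are descriptions of these 2 arrays, without a test.

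Lysosomes are acidic organelles in which endocytosed and autophagic material is broken down. Cathepsins are made as inactive precursors, reach the lysosome mostly through mannose 6-phosphate receptors and are activated by cleavage at low pH, while heavily glycosylated membrane proteins such as the LAMPs line the inner face of the organelle. In endothelium cathepsins also take part in matrix turnover after secretion, and Cd63 is found in the storage granules that hold von Willebrand factor. Many lysosomal genes carry an E-box type motif near their start site that is bound by TFEB and related transcription factors.

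The members differed in their ratio of endocardial over aortic intensity. The aspartic protease Ctsd (1.86-fold) and the lectin Lgals3 (1.70-fold) were brighter on the endocardial array, and Ctsl, a cysteine protease, was dimmer there (1.56-fold). The sphingolipid activator precursor Psap and the membrane proteins Lamp2 and Cd63 differed by 1.12-fold or less, as did Ctsb, and so did the brightest probe set of Lamp1. Ctsh, another cysteine protease, was 1.24-fold dimmer and the granulin precursor Grn 1.14-fold. The gene value of Lamp1 (1.85-fold) was the median of 2 probe sets that disagreed. Of the 10 members 0 were at least 2-fold higher and 0 at least 2-fold lower, against 5.93% and 4.16% of the 2935 genes measured. At 1.5-fold, 3 members were higher (Ctsd, Lamp1 and Lgals3) and 1 was lower (Ctsl), against 13.1% and 11.2% of all measured genes. The median log2 ratio was 0.04 over the 10 members, -0.15 over the 4 proteases and 0.12 over the other 6, and it was -0.02 over all measured genes.

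The upstream sequences of 3 members are shown because these genes span the range of gene values found: Ctsd and Lamp1 had the 2 highest and Ctsl the lowest. The high value of Lamp1 comes from a dim probe set, and its bright one was level (log2 ratio -0.03). Each is the 250 bases before the start site, from RefSeq on build GRCr8, read 5′ to 3′ along the strand of the gene. The Ctsd sequence lies at chr1:206968822-206969071 (minus strand), Lamp1 at chr16:83075064-83075313 (minus strand) and Ctsl at chr17:769854-770103 (plus strand). Capitals mark the letters CACGTG, the core of the E-box.
Ctsd: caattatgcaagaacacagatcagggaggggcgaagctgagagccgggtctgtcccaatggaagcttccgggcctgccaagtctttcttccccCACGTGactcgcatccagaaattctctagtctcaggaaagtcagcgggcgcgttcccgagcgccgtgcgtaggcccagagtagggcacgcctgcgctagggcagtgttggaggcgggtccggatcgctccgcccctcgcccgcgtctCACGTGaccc
Lamp1: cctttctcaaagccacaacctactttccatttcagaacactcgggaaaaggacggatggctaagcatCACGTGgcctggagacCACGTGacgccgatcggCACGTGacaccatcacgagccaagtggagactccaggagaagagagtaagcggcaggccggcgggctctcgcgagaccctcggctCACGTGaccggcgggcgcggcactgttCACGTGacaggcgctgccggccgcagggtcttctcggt
Ctsl: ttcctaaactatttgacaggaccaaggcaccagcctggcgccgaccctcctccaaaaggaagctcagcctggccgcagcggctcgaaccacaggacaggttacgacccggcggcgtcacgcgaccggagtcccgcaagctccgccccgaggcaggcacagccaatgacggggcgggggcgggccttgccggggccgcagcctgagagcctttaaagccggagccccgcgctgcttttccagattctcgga

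The window searched for motifs ran from 250 bases before to 50 bases after the start site, on both strands. Of the members 7 had such a window in the table; Ctsb, Psap and Lgals3 had none. The letters CACGTG stood in 3 of the 7 windows, 2 times in Ctsd, 5 times in Lamp1 and 1 time in Cd63, and they were not found in Ctsl, Ctsh, Grn or Lamp2. Over all 33469 windows in the table, the letters CACGTG were found in 6.42%, and over the 2641 windows of genes measured on these arrays in 9.39%. The longer TCACGTGA, which contains CACGTG and is close to the element bound by TFEB, stood in the windows of Ctsd and Lamp1, against 0.777% of all windows and 1.40% of those of measured genes. In Ctsd its first letter lay 11 bases before the start site, and in Lamp1 it occurred 66 and 39 bases before it. Among the other measured lysosomal genes listed further on, 35 had a window, of which 4 held CACGTG (Cstb, Gaa, Gnptg and Igf2r) and 2 held TCACGTGA (Gnptg and Igf2r). A match of letters does not show that a factor binds there, and whether these letters go with the ratio of a gene was not tested.

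Values are intensities after both arrays were scaled to the same trimmed mean. A floor was set at the median of the scaled values (635.4): a probe set was kept, and so measured, where it was above the floor on at least 1 array. The brightest of 38 control probe sets with no target in rat RNA reached 1742. Of the 20 member probe sets 18 were kept, and 17 were above both that control and the 75th percentile of all probe sets (2576) on both arrays. The exceptions were 3 of the 4 probe sets of Lamp1. Among probe sets above that percentile on both arrays, those of a same gene differed with an SD of 0.23 in log2 ratio (297 genes, 672 probe sets). This SD describes the disagreement between probe sets of 1 hybridisation and holds nothing of the variation between cultures or animals.

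**Figure D1:**
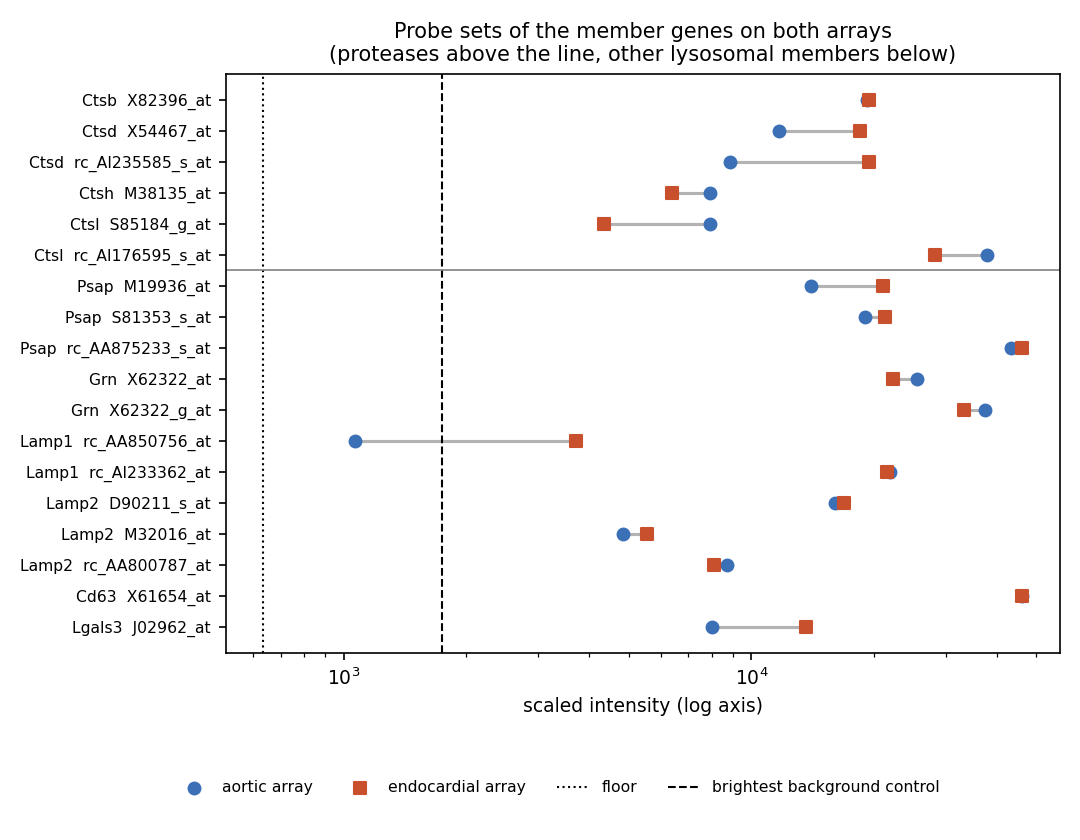
Scaled intensity (log axis) of the 18 kept probe sets of the 10 members on the aortic array (circles) and the endocardial array (squares), with proteases above the grey line; the dotted line is the floor (635.4) and the dashed line the brightest background control (1742). Both probe sets of Ctsd lie to the right on the endocardial array and both of Ctsl to the left, and 1 Lamp1 probe set crosses the control line. The other 2 probe sets of Lamp1, under the floor on both arrays, are not drawn.

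Among the proteases, Ctsd was the only one brighter on the endocardial array by more than the spread among probe sets. Ctsd is the main aspartic protease of the lysosome. Its probe set X54467_at read 11709.9 in aortic and 18443.1 in endocardial cells, 1.57-fold higher. Its probe set rc_AI235585_s_at read 8835 and 19391.9, 2.19-fold higher. Both probe sets thus went the same way, and their log2 ratios of 0.66 and 1.13 were each more than the SD of 0.23 above 0. Names ending in s_at mark probe sets whose probes can match more than 1 transcript. Of 2935 measured genes 210 (7.16%) had a ratio at least as high as the gene value of Ctsd (0.89). These genes include dim ones, whose ratios scatter more. Among probe sets above the 75th percentile on both arrays 6.98% were at least 1.5-fold higher. Of the member probe sets 2 of 18 were at least 2-fold higher and 0 lower, against 6.82% and 4.70% of all 3975 measured probe sets. The 2 were rc_AI235585_s_at of Ctsd and a dim probe set of Lamp1. Among the 17 bright member probe sets 1 was at least 2-fold higher and 0 lower, where 2.41% and 1.90% of all 1576 bright probe sets were.

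The 3 cysteine proteases of the papain family were level or dimmer on the endocardial array, with a median log2 ratio of -0.31. Ctsl, a potent endopeptidase, had probe set rc_AI176595_s_at at 37781.9 in aortic and 28211.5 in endocardial cells, 1.34-fold lower. Its probe set S85184_g_at read 7924 and 4349, 1.82-fold lower. Both probe sets of Ctsl were dimmer on the endocardial array, by 0.42 and 0.87 on the log2 scale, so they had the same sign and differed from each other by 0.44. Of all measured genes 291 (9.91%) had a ratio as low as or lower than that of Ctsl (-0.64). Ctsh, which trims peptides from their amino end, rested on the single probe set M38135_at, with 7892 in aortic and 6369.7 in endocardial cells. Its log2 ratio of -0.31 exceeded the spread among probe sets only slightly, and 24.6% of measured genes had a ratio as low. Ctsb, which cuts both within peptides and at their carboxyl end, read 19206.2 and 19370.6 with probe set X82396_at, a log2 ratio of 0.01. The intensities of Ctsb on the 2 arrays thus differed by far less than probe sets of a same gene do.

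The soluble members apart from the proteases were Psap and Grn. Psap encodes the precursor of the saposins, small proteins that present sphingolipids to lysosomal hydrolases. Its probe set M19936_at read 13993.6 in aortic and 21021.1 in endocardial cells (1.502-fold higher). The other 2 probe sets of Psap were closer to level, S81353_s_at with 18982.5 and 21259.7 (1.12-fold) and rc_AA875233_s_at with 43374.5 and 45970.9 (1.06-fold). All 3 went the same way, with a spread of 0.50 in log2 ratio and a median of 0.16. Grn encodes progranulin, a secreted and lysosomal protein that is cut into granulins. X62322_at of Grn read 25428.9 and 22265.8, and X62322_g_at read 37480.1 and 33124.9. The log2 ratios of Grn, -0.19 and -0.18, were nearly equal, but both probe sets were designed on the same sequence record and are not independent readings.

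The membrane proteins were close to level where they were bright. Lamp2, which besides coating the membrane serves as the receptor of chaperone-mediated autophagy, had 16072 and 16900.5 with D90211_s_at, 4854 and 5558 with M32016_at, and 8689.8 and 8089 with rc_AA800787_at, each aortic before endocardial. Its 3 log2 ratios ran from -0.10 to 0.20, all within the SD of 0.23 from 0. Cd63, a tetraspanin of late endosomes and lysosomes, read 46007.7 and 46036.3 with X61654_at, a log2 ratio of 0.00. These are the 2 closest values of any member.

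Lamp1, the companion of Lamp2 in the lysosomal membrane, gave values that depended on the probe set. The bright rc_AI233362_at read 21890.3 in aortic and 21513.8 in endocardial cells, a log2 ratio of -0.03. The dim rc_AA850756_at read 1068 and 3715, a ratio of 3.48, but its aortic value lay under the brightest background control, and against that control the fold was at least 2.13. The remaining rc_AA899808_at (-11.3 and -31.4) and rc_AA899808_g_at (172.9 and 354.8) were under the floor on both arrays. So the log2 ratio of 0.89 for Lamp1 is the midpoint of 2 probe sets that lie 1.82 apart on the log2 scale, and without the dim one the gene stood at -0.03. Without it the median over the 10 members was 0.01 in place of 0.04, and 0.04 in place of 0.12 over the 6 members that are not proteases. Pairings of probe sets with genes were those of the platform annotation, and whether the dim set reads Lamp1 was not tested.

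Lgals3, galectin-3, is a lectin that binds galactose-bearing glycans, gathers on damaged lysosomes and is abundant in macrophages. Its only probe set, J02962_at, read 8002 in aortic and 13587.5 in endocardial cells, 1.70-fold higher. The log2 ratio of 0.76 was well above the SD of 0.23 among probe sets, and 272 of 2935 measured genes (9.27%), dim ones included, reached it. Among probe sets above the 75th percentile on both arrays 6.98% were at least 1.5-fold higher. A single probe set gives no second reading of this difference.

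**Figure D2:**
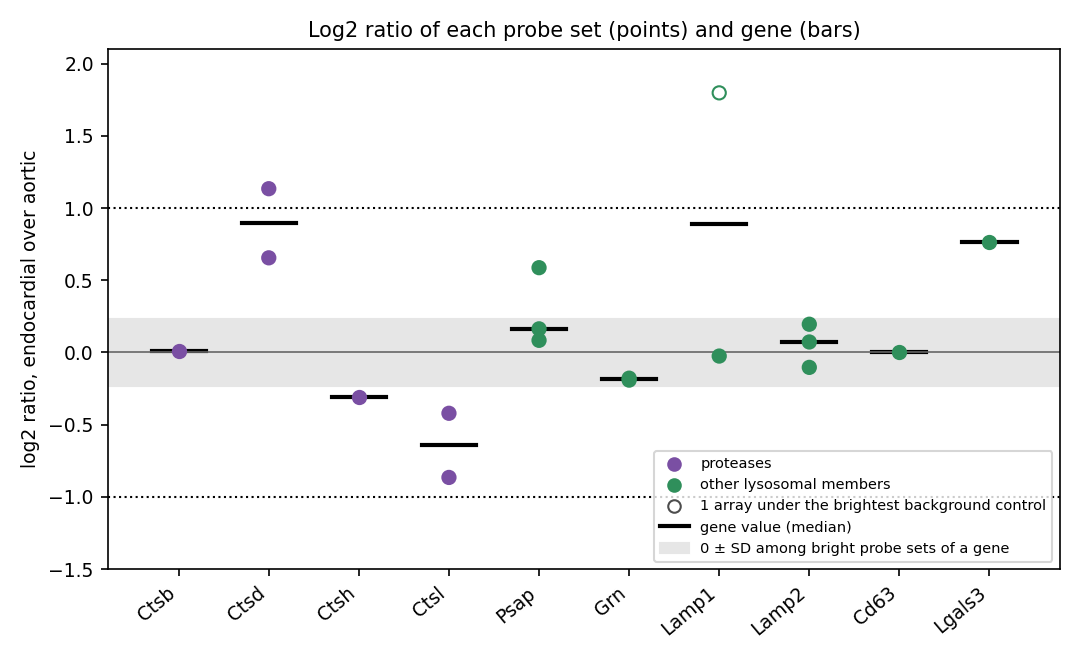
Log2 ratio, endocardial over aortic, of each kept probe set (points; purple for proteases, green for the others) and of each gene (black bars, the median of its probe sets). The grey band is 0 ± the SD (0.23) among bright probe sets of a gene and dotted lines mark 2-fold. All points of Ctsd and Lgals3 lie above the band and all of Ctsl and Ctsh below it. The Psap point of M19936_at (0.59) and the gene bar of Lamp1 (0.89) also lie above it. The open Lamp1 point (1.80) has an aortic value under the brightest background control.

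In order of gene value the members ran from Ctsd (0.89), Lamp1 (0.89) and Lgals3 (0.76) through Psap (0.16), Lamp2 (0.07), Ctsb (0.01) and Cd63 (0.00) to Grn (-0.18), Ctsh (-0.31) and Ctsl (-0.64). Neighbours differed by 0.19 or less, within the SD of 0.23, apart from the steps between Lgals3 and Psap (0.60) and between Ctsh and Ctsl (0.33). The 4 proteases held both ends of this range, -0.64 and 0.89. Of the 17 bright member probe sets 10 had a ratio above 0 and 7 below it, with a median of 0.01, where the median of all 1576 bright probe sets was -0.03. At 1.5-fold, 4 of the 17 were higher and 1 was lower, against 6.98% and 6.41% of all bright probe sets. The 4 were both probe sets of Ctsd, M19936_at of Psap and the Lgals3 probe set, and the 1 was S85184_g_at of Ctsl.

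**Figure D3:**
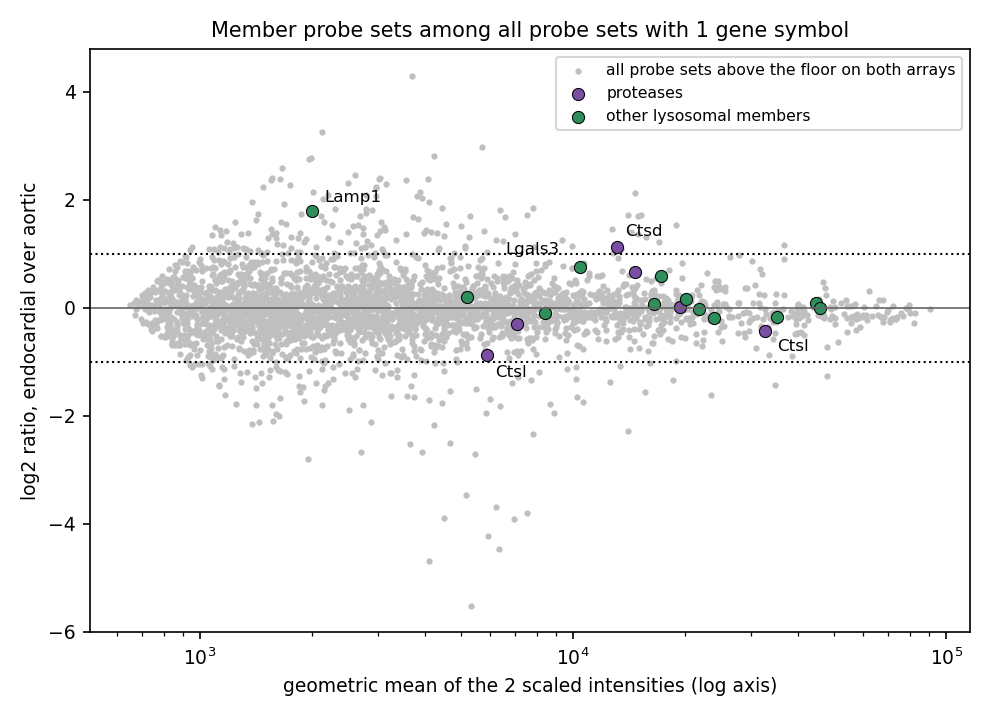
Log2 ratio against the geometric mean of the scaled intensities (log axis) for all probe sets with 1 gene symbol above the floor on both arrays (grey), with the 18 member probe sets in colour. All but 1 of the members lie in the bright part of the plot, where ratios scatter less (SD 0.23 among bright probe sets of a gene, 0.39 among those above the floor); the Lamp1 probe set at a log2 ratio of 1.80 lies among dim ones.

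Other genes of the lysosome, in 4 lists that leave out the members, were placed beside these values. Of 131 symbols listed 44 had a probe set of their own and 40 were measured. Of the 40, 5 had at least 2-fold higher values in endocardial cells (12.5%, beside 5.93% of all measured genes) and 0 at least 2-fold lower (beside 4.16%), with a median log2 ratio of 0.16. In 4 of the 5 (Ctsc, Ctss, Gm2a and Atp6v0a1) the aortic value was under the floor for at least 1 probe set, and such a probe set can only give a ratio above 0. With the floor raised to the brightest background control 1 of 36 was at least 2-fold higher and 0 lower, where 3.99% and 2.36% of 1904 genes were. Over the 28 whose gene values exceeded that control on both arrays the median was 0.05, with 14 above and 14 below 0.

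The 1 gene at least 2-fold higher with both values well above the controls was Cst3, cystatin C, a secreted inhibitor of cysteine cathepsins. Cst3 read 8996 in aortic and 18121.2 in endocardial cells with rc_AI231292_at, and 9239.6 and 19577.7 with rc_AI231292_g_at, 2.01-fold and 2.12-fold higher, though both probe sets stem from the same sequence record. Its relative Cstb, the cytosolic cystatin B, was 1.28-fold lower by the median log2 ratio of its 2 probe sets. These read 8335 and 5802 (-0.52) and 22108.9 and 19532.1 (-0.18). Ctsk, a collagen-degrading cysteine cathepsin, read 5613 and 4662, 1.20-fold lower. Ctss, the cathepsin S of antigen-presenting cells, was under the floor on the aortic array and at 3376 on the endocardial array, at least 5.31-fold higher against the floor and at least 1.94-fold against the brightest control. Ctsc, the dipeptidyl peptidase that activates granule proteases, was under the floor on the aortic array and at least 2.16-fold higher against it with either probe set, but the higher of its endocardial values, 1789.9, only just exceeded the brightest background control. Among the proteases outside the members, 3 of 6 including the inhibitors were thus at least 2-fold higher and 0 lower, beside 5.93% and 4.16% of all measured genes. Counted against the brightest background control as floor, 1 of 5 was higher, the inhibitor Cst3, so that no protease of this list passed 2-fold.

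Of 11 measured glycosidases, sulphatases and lipid hydrolases 1 was at least 2-fold higher, Gm2a, the activator protein of ganglioside breakdown, at 2876 on the endocardial array and below 0 on the aortic array (at least 4.53-fold against the floor, 1.65-fold against the brightest control). By gene value, the extremes among genes above the floor on both arrays were Ppt2, a thioesterase (log2 ratio 0.90), and Fuca1, the lysosomal fucosidase (-0.06). The value of Ppt2 rests on 1 probe set at 0.58 and 1 with an aortic value under the floor, and the highest gene with no such probe set was Gaa, the acid glucosidase, at 0.82 (5279 and 9295). The list median was 0.45. Of 12 membrane proteins, proton pump subunits and transporters 1 was at least 2-fold higher, the pump subunit Atp6v0a1 (log2 ratio 1.06). The brighter of its probe sets, M58758_g_at, read 1269, which is under the brightest background control, and 2592. The lowest was the chloride transporter Clcn3 (-0.74, from 2739 to 1635, the latter under the brightest background control), and the list median was -0.07. None of 11 sorting and regulatory genes passed 2-fold, with the adaptor subunits Ap1b1 at 0.78 and Ap3m1 at -0.38 as extremes and a median of -0.08. The value of Ap1b1 is the midpoint of 2 dim probe sets that disagreed, at 1.46 (933 and 2562) and 0.10 (1213 and 1302). Both had aortic values under the brightest background control.

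**Figure D4:**
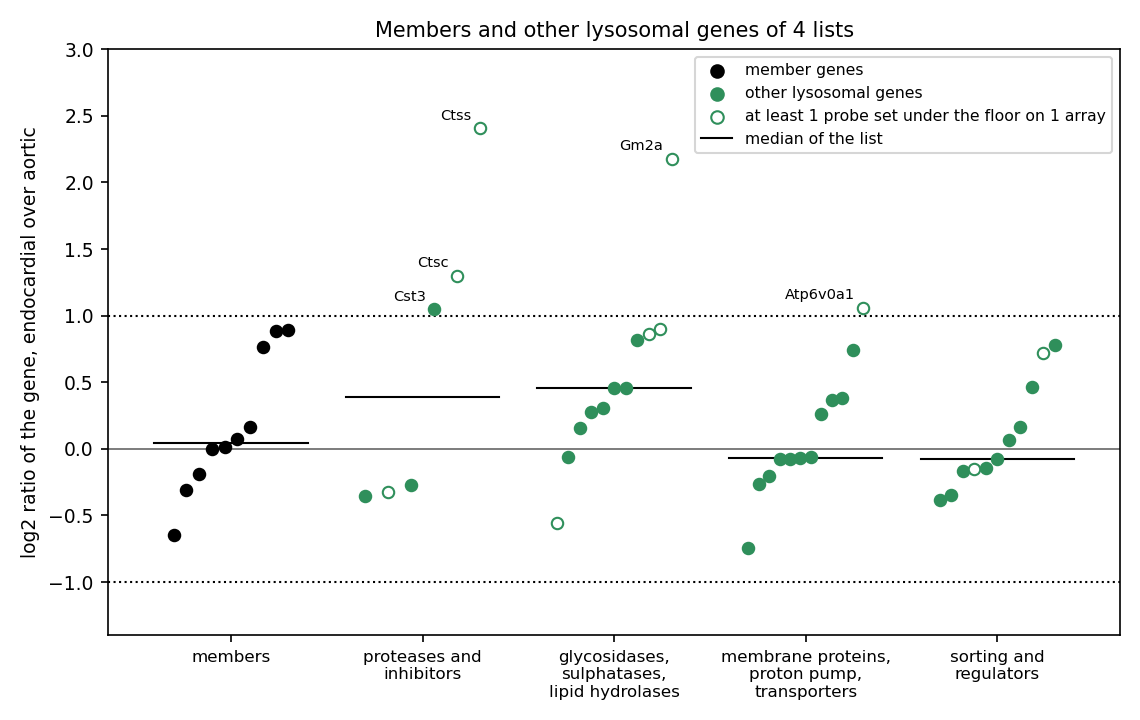
Log2 ratio, endocardial over aortic, of the 10 members (black) and of 40 other lysosomal genes in 4 lists (green; open where at least 1 probe set was under the floor on 1 array), sorted within each column, with list medians as short lines and 2-fold as dotted lines. The 5 named genes are at least 2-fold higher, and 4 of them are open points; no gene lies under the lower dotted line.

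Marker genes of other cells differed in intensity too. Macrophages are rich in lysosomes. Of 16 macrophage markers on the array 13 were measured, 7 were brighter in endocardial cells by at least 2-fold and 0 were dimmer by as much, beside 5.93% and 4.16% of all measured genes. By gene value 4 were above the floor on the aortic array against 13 on the endocardial array. By gene value all of the 7 (Lyz2, Ctss, Cd53, Cd74, Fcgr2b, Mmp12 and RT1-Da) were under the floor on the aortic array. For Cd74 this held in 3 of its 4 kept probe sets. A probe set kept through its endocardial value alone can only give a ratio above 0. Counted against the brightest background control as floor, 2 of 9 were higher (Lyz2 and Mmp12) and 0 lower, beside 3.99% and 2.36% of genes. The summed intensity of the 13, with values under the floor set to it, was 14108.5 in aortic and 61018.2 in endocardial cells. Since 4 of the 13 were above the floor on the aortic array, the direction of this sum was largely set by the filter. The same holds for the sum without Lyz2 given next. The largest single value was that of Lyz2, the macrophage lysozyme, which was under the floor on the aortic array and at 33619.5 on the endocardial array; without it the sums of the other 12 were 13473.1 and 27398.7. The pan-leukocyte gene Ptprc read 1171 and 1103, less than the brightest background control, and Csf1r, Itgam and C1qb did not reach the floor. RT1-Ba was 1.92-fold lower by gene value, but its 3 probe sets ran from -1.27 to 1.75 in log2 ratio. In 2 of these 3 a value was under the floor. RT1-Db1 was level, at 2755 and 2843 (log2 ratio 0.05). Ctss belongs to this list as well as to the lysosomal proteases, and Lgals3 is used as a macrophage marker elsewhere. Of 11 fibroblast markers 1 was at least 2-fold higher (Postn) and 2 were lower (Dcn and Lox), beside the same 5.93% and 4.16% of genes. Of 7 measured smooth muscle markers 2 were higher (Myl9 and Itga8) and 1 was lower (Myh11). With the brightest background control as floor the fibroblast counts stayed at 1 and 2 of 11. Of the smooth muscle markers 1 of 7 was then higher (Myl9) and 0 lower, beside 3.99% and 2.36% of genes. The part of these other cell types in the values of Ctsd, Lgals3 and the other lysosomal genes was not tested, and in RNA of a whole culture more cells of a type and more RNA in each cell cannot be told apart. Of 10 endothelial markers on the array 6 were measured. Edn1 (1874 and 4095) and Ets1 were at least 2-fold higher and Ace (2297 and 1028) at least 2-fold lower, beside 5.93% and 4.16% of genes. Ets1 had 2 probe sets, with median intensities of 679.5 in aortic and 1720.03 in endocardial cells, both under the brightest background control. Their log2 ratios were 0.43 and 1.87, and 1 of them had an aortic value under the floor. Ets1 still exceeded that control with at least 1 endocardial value, and with it as floor was 1.33-fold higher. With that control as floor 1 of 5 was higher (Edn1) and 0 lower, beside 3.99% and 2.36% of genes. Thbd read 3921 and 2848. Nos3 read 1396 and 1382 as the median of its 4 probe sets, less than the brightest background control. Neither Vwf, Pecam1 nor Kdr reached the floor, so the endothelial identity of both cultures is taken from the labels. Col1a1 (74687.4 and 68163.2) and Tagln (49583.5 and 58741.5) were bright on both arrays, while Des did not reach the floor. With the floor applied, measured fibroblast markers summed to 334266 in aortic and 276678 in endocardial cells. The sums were 113504 and 169200 for smooth muscle markers and 10994.7 and 12127 for endothelial ones. Probe sets differ in response, so such sums do not give the share of a cell type.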

How the data were processed

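Total RNA of 1 aortic and 1 endocardial endothelial culture was read on 1 array each. The authors deposited 1 linear intensity for each probe set and array, and these intensities can fall below 0; none of the sources used here names the software behind them. Per the file headers, the fluidics and scan settings of the arrays differed in 2 of 41 fields, which were the fluidics module used and the time of scanning.

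The 59 controls were set aside and the 8740 other probe sets scaled to a shared 2% trimmed mean (factors 1.00 and 0.999). Values under the floor were set to it. The log2 ratio, endocardial over aortic, was computed for each kept probe set and its median for each gene; a fold with 1 value under the floor is a lower bound. Symbols came from the platform annotation, and the 7006 probe sets with 1 symbol were used. Calls were counts past a fixed 2-fold, or 1.5-fold; with 1 array a group there is no test and no p-value. The members and the gene lists were chosen with earlier results of these data known. Named were all members with every probe set, each listed gene past 2-fold, the highest and lowest gene of each lysosome list above the floor on both arrays, and 6 cell type markers, of which Cd68 had no probe set of its own; other genes were named after their values were seen. Protein sequences were not used here. The alternatives were 4 scalings, 3 floors, 3 summaries of probe sets and a 1.5-fold threshold. The gene step was tested on simulated data with known differences. Python 3.11.15, pandas 2.3.3 and numpy 2.4.6 were used. The number of arrays, 1 for each group, limits the precision.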

Additional observations from a re-analysis of the deposited data

How the results depend on the processing

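No paired analysis was possible because each group had 1 array, and no replicate could be left out. Under the 4 other scalings the counts of members past 2-fold stayed at 0 in both directions, and those of the other lysosomal genes at 5 higher and 0 lower. The median log2 ratio of the members lay between 0.01 and 0.12 over 10 alternatives, that of the proteases between -0.15 and -0.11 and that of the other members between 0.04 and 0.17, none moving by more than the SD of 0.39 among probe sets of a gene above the floor. Members at least 2-fold higher numbered 1 of 10 with no floor (Lamp1, for which 3 probe sets then counted), where 338 of all 3598 genes were. They numbered 2 of 18 with each probe set taken alone, where 6.82% of all 3975 probe sets were. At 1.5-fold 3 members were higher and 1 was lower, beside 13.1% and 11.2% of all measured genes. Other lysosomal genes at least 2-fold higher numbered 1 of 36 when the brightest background control served as floor (3.99% of all genes). They numbered 1 of 32 when the 75th percentile did (45 of all 1505 genes). With each probe set alone 13 of 59 were higher, beside 6.82% of all probe sets. Part of the 13 had an aortic value under the floor, and such a probe set can only give a ratio above 0. At 1.5-fold 11 other lysosomal genes were higher and 1 was lower, beside the same 13.1% and 11.2% of genes. With no floor 1 was at least 2-fold lower, where 408 of all 3598 genes were. The raised floors leave fewer genes measured, single probe sets are another unit than genes, and a lower threshold calls at least as many genes. With no floor the value of Lamp1 (1.04) was that of its middle probe set, rc_AA899808_g_at. This probe set read 172.9 and 354.8, under the floor on both arrays. The cause of the move of the other lysosomal genes with no floor was not tested. Of 90 values for single members under the alternatives 2 moved by more than that SD, both of Lamp1: 0.25 with the floor at the 75th percentile and -0.03 with its brightest probe set. Each of the other 9 members kept the sign of its log2 ratio, with Ctsd from 0.66 to 0.94, Lgals3 from 0.76 to 0.81 and Ctsl from -0.64 to -0.42. Differences between cultures of a same origin were not measured.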
